A study of Mus musculus with 6 samples.

Results

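The genes described here are 10 genes of the regulated secretory pathway: the granins Chga, Chgb, Scg2 and Scg3, the granin-like chaperone Scg5, and the prohormone processing genes Pcsk1, Pcsk2, Pcsk1n, Cpe and Pam. They were taken by name, as a list chosen with earlier results of these data known. All 10 were found by symbol among the 24389 Ensembl genes of each library. Of these, 9 were among the 13911 genes whose mean over the libraries reached 1 and that were tested, and Pcsk1n was not.

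RNA was measured by sequencing in dorsal pancreata of mouse embryos at stage E13.5, in 3 Bicc1 knockout (KO) and 3 wild-type (WT) libraries. The strain of both groups was mixed, C57BL/6 and ICR. The protein made from Bicc1, Bicaudal C1, binds RNA, and the 2 genotypes were compared for the effect of its absence on mRNA levels. The labels describe neither the allele nor whether a library came from 1 embryo or a pool, so a p-value here reflects the spread of these libraries alone. Triplets of values are given in the order of replicates 1, 2 and 3.

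Endocrine cells store peptide hormones in dense-core granules, and granins are acidic proteins that help to form these granules and are themselves cut into peptides. Inside the granule, prohormone convertases cut precursors after pairs of basic residues, carboxypeptidase E trims those residues from the new ends, and peptidylglycine alpha-amidating monooxygenase amidates some peptides. In the pancreas of this stage, scattered endocrine cells, many of them making glucagon, arise from epithelial progenitors that express Neurog3. Neurons and chromaffin cells carry the same granule machinery, and Pam and Cpe are also made outside endocrine cells.

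The targeted gene was low in every library labelled KO. Bicc1 (ENSMUSG00000014329) had a deposited expression value of 3.96, 4.91 and 4.48 among KO and 19.7, 19.5 and 18.2 among WT libraries. It fell by 1.89 on the log2(value + 1) scale (limma, p adjusted by Benjamini-Hochberg over all genes tested, 0.000674). The deposited unit is not stated, so values of 1 gene, or the sum of 1 marker list, are compared between libraries, and a higher value of 1 gene than of another is not read as more mRNA. The depth of the libraries is unknown and the sums of all values, 674295 to 716255, are not read totals.

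None of the 9 tested genes passed limma at an adjusted p of 0.05. Across all 13911 genes 0.0144% did, which is 2 genes, Bicc1 and 4930533K18Rik, both lower in KO. Among the granin and processing genes 0 had an unadjusted p under 0.05, where 10.3% of all genes did, and their adjusted p ran from 0.496 for Chgb to 0.994 for Pcsk1. In 6 of the 9 the log2 mean was lower in KO, as in 46.5% of all genes tested, and the median log2 change was -0.074 against 0.014 over all genes. KO and WT values overlapped in all 9. Of all genes tested 16.4% had groups that lay apart, 8.77% with all KO below all WT and 7.67% with all KO above.

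Library KO 2 differed from KO 1 and KO 3 in most of these genes, and the plot of values by library shows it. KO 2 was the highest of the 6 libraries in 5 of the 9 genes (30.9% of all genes tested), and KO 1 was the lowest in 6 of the 9 (17.6%). In 5 genes, Chga, Chgb, Scg3, Pcsk1 and Pcsk2, both KO 1 and KO 3 lay below every WT library (14.7% of all genes). In 4 of them, Chga, Chgb, Pcsk1 and Pcsk2, KO 2 was at the same time the highest library (2.16%). These patterns were described after the values were seen, and the genes share the same 6 libraries, so their counts are not independent.

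**Figure D1:**
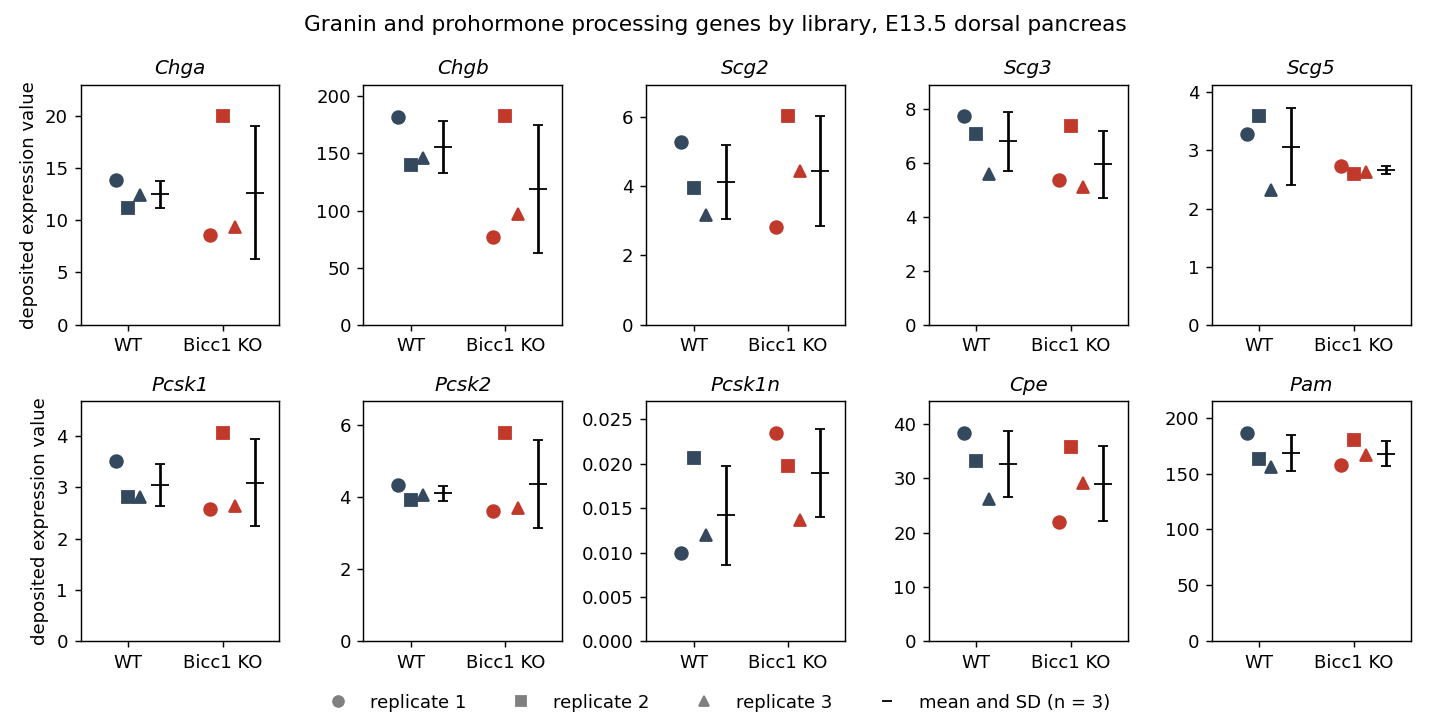
Deposited expression value (y axis, linear, from 0, one scale per gene) of the 10 genes in the 3 WT and 3 Bicc1 KO libraries, with marker shapes for the replicate numbers and the mean and SD of each group beside them. In Chga, Chgb, Pcsk1 and Pcsk2 the square of KO 2 lies above all other libraries while KO 1 and KO 3 lie below all WT libraries; Pcsk1n stays at or near the floor of 0.01.

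Chga (ENSMUSG00000021194) encodes chromogranin A, a founding granin used as a general marker of endocrine cells. The KO libraries had 8.58, 19.95 and 9.34, the WT libraries 13.8, 11.2 and 12.4. KO 2 alone reached 160% of the WT mean, and KO 1 with KO 3 averaged 71.9% of it. The group means were therefore nearly equal, 12.6 ± 6.36 (SD, n = 3) for KO and 12.5 ± 1.32 (SD, n = 3) for WT. The log2 change of -0.074 (SE 0.276) had a 95% confidence interval from -0.72 to 0.57 and an adjusted p of 0.917 in limma.

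Chgb (ENSMUSG00000027350) encodes chromogranin B, which resides in the same granules. It was 76.5, 182.6 and 97.2 among KO and 181.8, 139.7 and 145.9 among WT libraries. KO 1 and KO 3 were thus well under every WT library, while KO 2 stood level with WT 1. KO averaged 118.8 ± 56.2 and WT 155.8 ± 22.7 (SD, n = 3 per group), a ratio of 76.3%. It was 55.8% without KO 2 and 89.8% without KO 1, where the log2 change was -0.21. Chgb had the most negative log2 change of the 9 genes, -0.48 (SE 0.291, 95% confidence interval -1.16 to 0.20), and limma gave an adjusted p of 0.496.

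Pcsk1 (ENSMUSG00000021587) and Pcsk2 (ENSMUSG00000027419) encode the convertases PC1/3 and PC2, which make the first cuts in proinsulin and proglucagon. Pcsk1 was 2.58, 4.06 and 2.63 among KO and 3.51, 2.80 and 2.81 among WT libraries. For Pcsk2 the KO values were 3.61, 5.79 and 3.70 and the WT values 4.34, 3.91 and 4.07. In both genes KO 2 stood clear above WT, at 133% and 141% of the WT mean, and KO 1 and KO 3 lay just under the lowest WT library. Their log2 changes were 0.0027 (SE 0.15) and 0.049 (SE 0.151), with adjusted p of 0.994 and 0.897 in limma, and confidence intervals of -0.35 to 0.35 and -0.30 to 0.40.

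Chga, Chgb, Pcsk1 and Pcsk2 had 1 identical order of the libraries, KO 1 lowest, then KO 3, WT 2, WT 3, WT 1 and KO 2. This order, read from unscaled values, was found in 37 of the 13911 genes tested (0.266%). It rests in part on small differences. WT 2 and WT 3 were 2.80 and 2.81 in Pcsk1, and WT 1 and KO 2 were 181.8 and 182.6 in Chgb. Scaling by median ratios (factor 1.019 for KO 2 and 1.0015 for WT 1) puts WT 1 above KO 2 in Chgb. Of 19 tested genes of the granule membrane and of exocytosis, Syt13, a synaptotagmin named after its values were seen, had the same unscaled order. None of 9 tested hormone precursors and none of 14 endocrine transcription factors did. Ins2, Fev, Rph3al, Ret, Epcam and Cdh1 had this order except that KO 3 lay below KO 1. They were picked after their values were seen, so the order is close to that of genes in other lists.

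The bases just before the RefSeq start of these genes were searched for short motifs. For each gene holding the letters TGACG there, on either strand, a window is shown. These letters were in genes with this order of libraries and in Scg2, Scg3 and Scg5 without it. A link to the order was not tested. A promoter sequence (build GRCm38.p6, RefSeq) was matched for 9 of the 10 genes, all but Cpe, with 10 sequences since Pam has a pair. The cyclic AMP response element, TGACGTCA, was present on either strand within 250 bases before the start in 3 of the 9 genes, Chgb, Scg2 and Pcsk1, and in 1.55% of all 32851 promoters. Chga held TGACGTAA, found in 0.447% of promoters. The core TGACG, which lies within both, was found in 7 of the 9 genes and in 17.8% of all promoters. Pcsk1 held a further core 50 bases before the start, whose window is not shown. The windows of 30 bases below run 5′ to 3′ on the strand of the gene, and capitals mark the match.
Chga, chr12:102554886-102554915, plus strand, match starting 44 bases before the start: gggcggtcctaTGACGTAAtttcctgggtg
Chgb, chr2:132781559-132781588, plus strand, 72 bases before: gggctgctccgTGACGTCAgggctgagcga
Pcsk1, chr13:75089768-75089797, plus strand, 78 bases before: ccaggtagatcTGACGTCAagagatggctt
Pcsk2, chr2:143546087-143546116, plus strand, 34 bases before, core read on the opposite strand: ctggcgggcgcgCGTCAcccgggctggcgc
Scg2, chr1:79440076-79440105, minus strand, 68 bases before: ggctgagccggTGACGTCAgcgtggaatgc
Scg3, chr9:75684069-75684098, minus strand, 30 bases before, core: gcgctgggtcgcTGACGccatcctcacgcc
Scg5, chr2:113829249-113829278, minus strand, 175 bases before, core: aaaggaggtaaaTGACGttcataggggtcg

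Other motifs were searched in the same windows, on both strands. CANNTG was found in 7 of the 9 genes (66.2% of all promoters), GGGCGG in 6 (32.7%), CCAAT in 2 (33.8%) and GGACAGC in Scg2 alone (5.28%). The letters TATAAA, present in 12.4% of all promoters, were in none of these stretches, nor was the E-box form CACGTG (6.02%) or the form CAGATG (14.4%). Likewise not present were TTCAGCACC (0.301%) and CCACNNGGC (5.03%), then AAGCTT (6.22%) and a CArG box (0.0457%). A match is a description of the letters and was not tested for binding.

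Scg2 (ENSMUSG00000050711) encodes secretogranin II, the precursor of the peptide secretoneurin. Its values were 2.82, 6.01 and 4.44 among KO and 5.28, 3.93 and 3.16 among WT libraries. Here, too, KO 1 was lowest and KO 2 highest, but KO 3 lay within the WT range, so that its order of libraries was not that of Chgb and Pcsk1, with which it shares TGACGTCA. KO averaged 4.43 ± 1.59 and WT 4.12 ± 1.07 (SD, n = 3 per group), a ratio of 107%, and the adjusted p of limma was 0.92.

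Scg3 (ENSMUSG00000032181) encodes secretogranin III, which binds chromogranin A and membrane cholesterol in the granule. It was 5.36, 7.38 and 5.09 among KO and 7.73, 7.06 and 5.6 among WT libraries. KO 1 and KO 3 lay below all WT values, and KO 2 lay second to WT 1. KO averaged 87.5% of WT, or 76.9% with KO 2 left out, with a log2 change of -0.17 (SE 0.152) and an adjusted p of 0.615 in limma.

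Scg5 (ENSMUSG00000023236) encodes 7B2, the chaperone that PC2 needs to become active. Scg5 was 2.73, 2.60 and 2.64 among KO libraries, with no excess in KO 2, and 3.29, 3.59 and 2.32 among WT. The 3 KO values were within a narrow span that lay inside the wider WT range. The mean was 2.66 ± 0.068 for KO against 3.07 ± 0.666 for WT (SD, n = 3 per group), 86.7% of WT, with a log2 change of -0.14 (SE 0.126) and an adjusted p of 0.622 in limma.

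Pcsk1n (ENSMUSG00000039278) encodes proSAAS, the inhibitor of PC1/3. It was listed at or near the floor of the files in all libraries, at 0.0235, 0.0197 and 0.0137 among KO and 0.01, 0.0206 and 0.012 among WT libraries. Whether the authors' counting could detect this gene is not known, so these values do not show that it was not expressed, and no fold or test is given. Its promoter window held neither the cyclic AMP response element nor its core.

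Cpe (ENSMUSG00000037852), carboxypeptidase E, was 22.0, 35.8 and 29.2 among KO and 38.3, 33.2 and 26.2 among WT libraries. KO 1 was the only KO library below every WT library. The mean was 29.0 ± 6.90 for KO against 32.6 ± 6.11 for WT (SD, n = 3 per group), 89.0% of WT, with a log2 change of -0.17 (SE 0.192) and an adjusted p of 0.688 in limma. Pam (ENSMUSG00000026335), the amidating enzyme, varied least, with a ratio of 1.20 between its highest and lowest library, where Chgb had 2.39. It was 157.7, 179.8 and 166.2 among KO and 186.5, 163.1 and 155.7 among WT libraries, so that the KO mean was 99.7% of the WT mean. The log2 change of Pam was -0.0024, with a 95% confidence interval from -0.22 to 0.21, the narrowest of the 9 genes.

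Without KO 2, all 9 tested genes had a lower log2 mean in KO (49% of all genes tested in that comparison). Their median log2 change was -0.16 against 0.0035 over all genes. Other lists were lower too, with 8 of 8 hormone precursors (median -0.26), 13 of 14 endocrine factors (-0.42) and 10 of 12 epithelial markers (-0.17). So were 11 of 12 markers of neurons and crest (-0.11), 4 of 4 of gut and liver (-0.16) and 11 of 18 exocytosis genes (-0.097). It was 6 of 12 for mesenchyme (-0.0023) and 2 of 13 for other proteases (0.086). Chgb had a log2 change of -0.84 (SE 0.149), Chga of -0.43 (SE 0.105), Cpe of -0.33 (SE 0.181) and Scg3 of -0.31 (SE 0.13). The unadjusted p of limma was 0.00103 for Chgb, 0.00527 for Chga and 0.0484 for Scg3. Of all genes 4.36% were lower at an unadjusted p under 0.05. KO 2 was the highest library in 5 of the 9 genes, so leaving it out lowers their KO means. It also narrows the spread, and the SE of Chga fell from 0.276 to 0.105. These p are therefore a description and not evidence of a lower level in KO. After Benjamini-Hochberg adjustment over all genes 0 of the 9 passed, with 0.335 for Chgb and 0.465 for Chga, where 0.0578% of all genes (8 genes) passed in limma. The direction changed between the comparisons with and without KO 2 in Scg2, Pcsk1 and Pcsk2, from 0.060, 0.0027 and 0.049 to -0.15, -0.16 and -0.13. Scg5 was -0.14 with KO 2 and -0.13 without it, but it moved with the WT libraries, to -0.28 without WT 3 (limma, adjusted p 0.155) and -0.045 without WT 2.

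**Figure D2:**
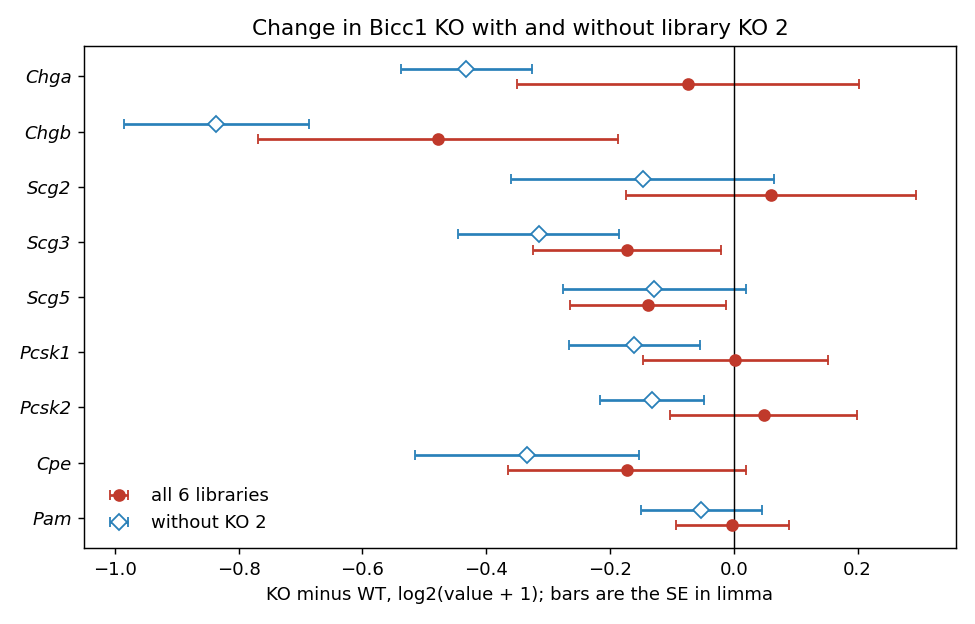
Difference of KO and WT in mean log2(value + 1) (x axis) for the 9 tested genes, with all 6 libraries (filled circles) and without KO 2 (open diamonds); bars are the standard error in limma and the vertical line marks no difference. Without KO 2 all 9 points lie below 0, and the shift is widest in Chga and Chgb and smallest in Scg5.

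Both KO 1 and KO 2 lie on 1 side of the first principal component of all tested genes, together with WT 3, and KO 3, WT 1 and WT 2 lie on the other. This component held 57.3% of the variance and went with the GC content of genes. The libraries KO 1 and KO 2 thus shared their side and its GC trend (Spearman's rho across genes of 0.50 and 0.61) but stood at opposite ends for Chga, Chgb, Scg2, Pcsk1 and Pcsk2. Within the first side the mean of KO 1 and KO 2 was above WT 3 in 8 of the 9 genes, with a median log2 difference of 0.14, and Chgb was the exception at -0.30. On the second side KO 3 was below the mean of WT 1 and WT 2 in 9 of 9 genes, with a median of -0.28. Of all genes tested 58.9% were higher in KO on the first side, 46.9% lower on the second, and 19.5% both. Only Chgb was lower in KO on both sides, by -0.30 and -0.71. After correction for GC content the log2 change was -0.30 for Chga and -0.59 for Chgb, against -0.074 and -0.48 without it, with adjusted p of 0.703 and 0.597 in limma.

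Markers of pancreatic epithelium also stood highest in KO 2, in 9 of 12 tested genes (30.9% of all genes tested). The summed value of the 12 was 1863, 2190 and 1554 among KO and 1774, 1823 and 1887 among WT libraries, and the deposited values that weigh most in it are those of Spp1 (mean 1166.7 in KO and 1135.0 in WT) and Cpa1 (266 and 236). In a bulk sample, fewer endocrine or epithelial cells and less RNA per cell cannot be told apart. When each library was divided by the geometric mean of the epithelial genes Epcam and Cdh1, an alternative chosen after the data were seen, KO 2 stayed the highest library in 3 genes, Chga, Pcsk1 and Pcsk2. Chga was then 9.17, 16.9 and 11.6 among KO and 12.6, 11.3 and 11.9 among WT libraries, so that KO 3 came inside the WT range. Chgb was the 1 gene with KO 1 and KO 3 still below all WT libraries, at 81.7 and 120.3 against 140.4 to 166.0, with KO 2 at 155.0. The part of epithelial content in these values was not tested beyond this.

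Cells other than pancreatic endocrine cells can carry granins. Of 12 tested markers of neurons, neural crest and chromaffin cells, 10 had a lower and 2 a higher log2 mean in KO, and 0 passed limma. Of all genes tested 46.5% were lower. Groups lay apart in 1 of the 12, Nefl, with all KO below all WT (8.77% of all genes). There KO 2 at 7.395 was just under WT 3 at 7.401. The sum of all 16 listed was 117.0 to 123.8 in KO and 124.5 to 141.4 in WT, with most weight on the growth cone gene Gap43 (66.6 ± 5.93 and 73.6 ± 4.82, SD, n = 3 each) and on Stmn2 (13.4 ± 0.629 and 14.0 ± 2.90). KO 2 was the highest library in 3 of these 12, and the lowest for Gap43 at 61.5. The chromaffin enzymes Th and Dbh and the neuronal filament gene Prph were low in every library, from 0.0773 to 0.333, but none was at the floor. Sox10, a neural crest factor, was 1.48, 2.79 and 1.47 among KO and 2.32, 2.13 and 2.39 among WT libraries, highest in KO 2 and low in KO 1 and KO 3 like Chga, and its part in the granin values was not tested. Nefl, Sox10, Th, Dbh and Prph were chosen for mention after their values were seen.

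The hormone precursors that these enzymes cut also stood high in KO 2. Of 20 listed precursors 9 were tested, KO 2 was the highest library in 8 of them (30.9% of all genes tested), and 0 passed limma with all libraries. Ins2, an insulin gene, was 2.84, 23.5 and 2.11 among KO and 10.1, 3.72 and 6.85 among WT libraries, while for Ins1 KO had 1.44, 7.20 and 1.02 and WT had 2.67, 1.37 and 2.58. Gcg, the glucagon gene, was highest in WT 1 at 228.5, next to 226.3 in KO 2, and lowest in WT 3 at 144.7 and KO 1 at 148.3. The lowest p of limma among the precursors belonged to Gast, Cck and Nucb2 (adjusted p 0.570, 0.786 and 0.824). Cck (cholecystokinin) was 7.71, 11.9 and 6.69 in KO and 9.41, 7.92 and 11.1 in WT, again with KO 1 and KO 3 lowest and KO 2 highest. Of the precursors named here, KO 2 stayed highest relative to Epcam and Cdh1 for Ins1, Ins2 and Gast. It no longer was for Cck and Nucb2.

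Among transcription factors of the endocrine lineage, KO 2 was the highest library in 4 of 14 tested (30.9% of all genes) and WT 1 in 8. Of the 14, 12 had a lower log2 mean in KO (46.5% of all genes), with a median of -0.29 and 0 past limma. Neurog3 was 34.0, 50.9 and 35.1 among KO and 66.4, 55.4 and 58.3 among WT libraries, so KO 2 stayed below all WT libraries for this factor while it exceeded them all for Chga, Chgb, Pcsk1 and Pcsk2. Insm1, a zinc finger factor of early endocrine cells, had the same form as Neurog3, with 11.3 in KO 2 against 11.9 to 14.4 in WT. For Neurod1, which acts after Neurog3, KO 2 with 19.0 lay within the WT range of 18.2 to 22.9. KO 1 and KO 3 were below all WT libraries in 11 of the 14 factors, against 14.7% of all genes tested. The same held in 5 of the 9 granin and processing genes and in 3 of the 9 hormone precursors. It also held in 7 of 19 tested genes of the granule membrane and exocytosis and in 0 of 13 other proteases and peptide-modifying enzymes. Among marker lists it held in 4 of 12 for epithelium, 4 of 12 for neurons, crest and chromaffin cells, 3 of 12 for mesenchyme and 2 of 4 for gut and liver. Whether these lists differ was not tested.

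**Figure D3:**
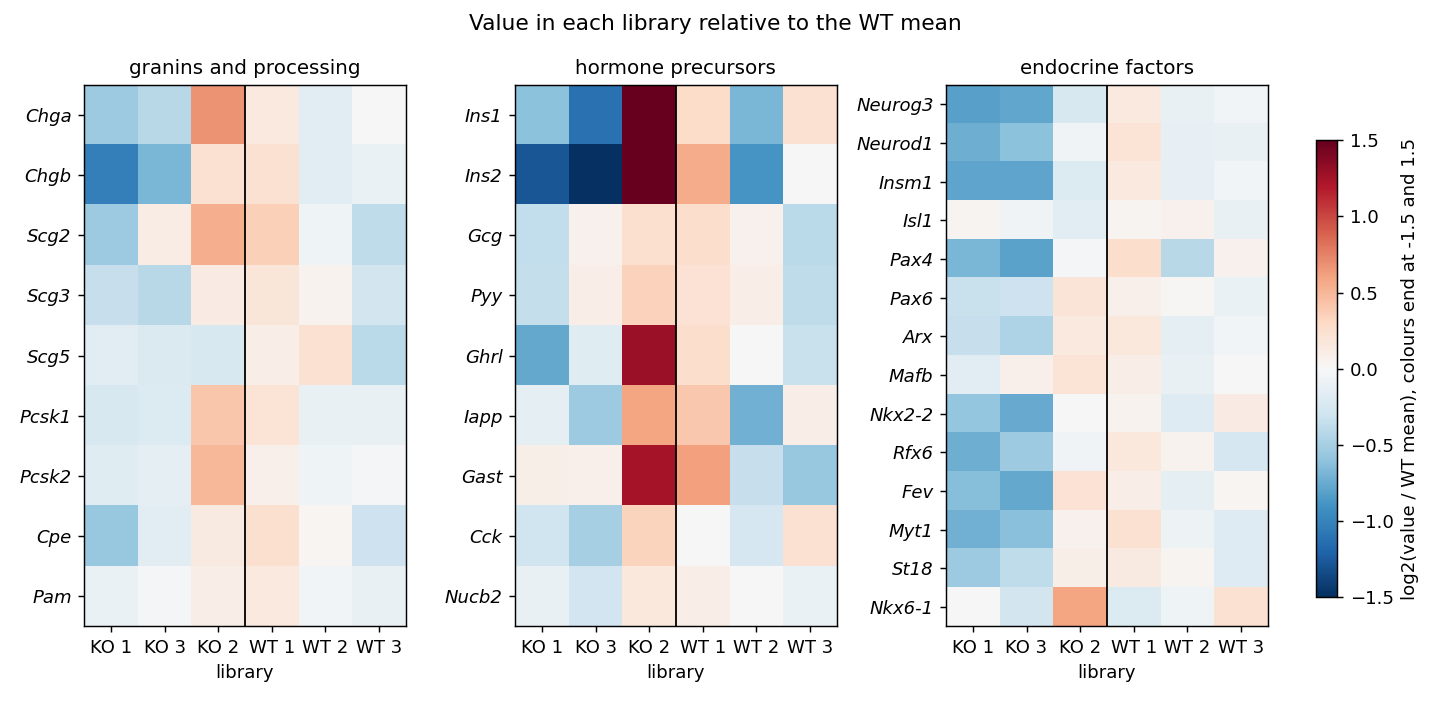
Value of each tested gene in each library relative to the mean of the 3 WT libraries, as log2(value / WT mean) in colour (red above, blue below), for granin and processing genes, hormone precursors and endocrine transcription factors; the line divides KO from WT. The column of KO 2 is red for most granins, convertases and hormones and pale or blue for Neurog3 and Insm1, while KO 1 and KO 3 are blue in most rows of each panel.

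Of other proteases and peptide-modifying enzymes, all 13 that were tested had a higher log2 mean in KO (53.5% of all genes tested), with a median of 0.13, and 0 passed limma. After GC correction 8 of the 13 were higher and the median was 0.054. KO 2 was the highest library in 9 of the 13 (30.9% of all genes tested). Groups lay apart in 3 of the 13, all higher in KO, where 7.67% of all genes tested had all KO above all WT. Whether this list differs from the granin and processing genes was not tested. Qpctl, a glutaminyl cyclase of the Golgi, was 3.58 ± 0.451 for KO against 2.83 ± 0.144 for WT (SD, n = 3 per group) with groups that lay apart, and limma gave an adjusted p of 0.469. Mbtps1, the site-1 protease of the Golgi, was 27.0 ± 0.786 and 24.6 ± 1.13, also apart, with an adjusted p of 0.478 in limma. Ece1, endothelin-converting enzyme, was 16.0, 21.8 and 17.1 in KO and 15.6, 14.9 and 16.1 in WT, with KO 1 just under WT 3.

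Among genes of the granule membrane and exocytosis, 19 of 27 found were tested. Of these, 9 were higher and 10 lower in KO, and 0 passed limma, with a median log2 change of -0.0030. KO 2 was the highest library in 12 of the 19 (30.9% of all genes tested). KO 1 and KO 3 were below all WT libraries in 7 of the 19 (14.7% of all genes tested). Groups lay apart in 2 of the 19, both higher in KO, a share near that of all genes tested (7.67% with all KO above all WT). Rab3a, a small GTPase of secretory vesicles, was 3.11, 3.87 and 3.00 in KO and 2.26, 2.29 and 2.52 in WT. Cadps2, a priming factor for dense-core vesicles, was 2.25, 2.33 and 2.73 in KO and 1.64, 1.80 and 1.83 in WT. In limma both stood at an adjusted p of 0.469. Sytl4, the Rab27 effector granuphilin, was 2.42, 2.96 and 2.60 in KO and 3.43, 3.12 and 2.77 in WT, with an adjusted p of 0.488.

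The genes most like the 9 over the 6 libraries were found by the root mean square difference of log2 profiles, each centred on its own mean. Closest to the mean profile of the 9 were 1700086L19Rik (difference 0.044), Fgfr3 (0.053), Rapgef4 (0.058), Ptprn2 (0.071) and Atp8b1 (0.071). Ptprn2, a receptor-like phosphatase protein of dense-core granules, was 22.2, 34.7 and 22.1 in KO and 33.1, 27.7 and 27.1 in WT. Rapgef4, which encodes the cyclic AMP sensor Epac2, was 1.27, 2.17 and 1.52 in KO and 2.0, 1.68 and 1.59 in WT. Closest to Chga were Rbpjl (0.10), Bhlha15 (0.129), Osr2 (0.131), Clu (0.143) and Pik3ap1 (0.146). Rbpjl and Bhlha15 encode transcription factors of acinar cells, and Bhlha15 was 7.69, 14.6 and 6.37 in KO and 10.4, 7.43 and 8.55 in WT. These differences describe 6 libraries and were not tested.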

How the data were processed

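The authors deposited, for each of 6 libraries, a non-negative expression signal per Ensembl gene with a floor of 0.01, and the headers name no unit. In 4057 genes the deposited signal has at most 2 decimals in every library (Insm1 among them) and in the others more; the reason is not known. Per the labels' protocols, libraries were made with the TruSeq RNA kit v2, which does not mark strand, so overlapping antisense genes cannot be told apart. The submitters' processing notes name CASAVA 1.82, Bowtie 0.12.7 and mm9; annotation, counting and normalization: not given in the sources used here. Symbols were matched for 22624 identifiers (92.8%). Deposited values were used unscaled. limma 3.58.1 (R 4.3.3) was run on log2(value + 1) for genes whose mean reached 1 (mean-variance trend, two-sided, group only) and Benjamini-Hochberg adjustment at 0.05. This scale understates changes of low genes. The model was tested on simulated data.

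The members, lists, tests and alternatives were chosen with earlier results of these data known. Named are Bicc1, the 10 genes, Neurog3, Ins1, Ins2, Gcg, the 3 lowest p of each pathway list (or any past the threshold), the 2 highest of each marker list and the 5 nearest profiles; genes named outside this rule are said to be so where they appear. Marker lists for mesenchyme (12 tested, 6 higher and 6 lower in KO, highest values Vim and Prrx1) and neighbouring gut and liver (4 tested, 1 higher and 3 lower, highest values Ttr and Gata4) had 0 genes past limma.

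The labels do not say that equal numbers pair libraries, so the replicate number is not treated as a pairing. Same-numbered KO and WT libraries did not deviate together (correlation of deviations across genes -0.22, -0.40 and -0.64). They also lay on opposite sides of the first principal component, so these correlations cannot exclude a pairing. GC content is that of the longest GENCODE M21 transcript. Promoters are RefSeq, build GRCm38.p6; the files use mm9, and no coordinate was converted. Python 3.11.15, pandas 2.3.3 and matplotlib 3.10.9 were used.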

Additional observations from a re-analysis of the deposited data

How the results depend on the processing

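None of the granin and processing genes passed the threshold under any of the alternatives run, and with the replicate number as a block 0 passed as well. The number of all genes past an adjusted p of 0.05, 2 with all libraries, was 1 with no filter on low values, 4 after GC correction and 1 with GC correction and the replicate block. With the replicate block alone limma called 0 genes, 656 at an unadjusted p under 0.05, and Bicc1 had an adjusted p of 0.0880. Leaving out 1 library gave 1 to 8 genes, with 8 without KO 2 and 1 without KO 1, KO 3, WT 1 or WT 3. Of the 9 tested members 5 had a lower arithmetic mean in KO, and leaving out 1 library gave 4 to 9, with 9 without KO 2.

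Of 625 recomputed log2 changes of 33 named genes, 43 changed sign, in 15 genes, and in none of these did the gene pass the threshold. Pcsk1, at 0.0027, became -0.00052 when scaled by median ratios, -0.0060 by totals, -0.0084 by upper quartiles, -0.0014 with a pseudocount of 0.1 and -0.016 with a term for the side of that component described above. With that term Pam became 0.022, Stmn2 0.026, Spp1 -0.026 and Ins1 -0.11. After GC correction, with or without the replicate block, Nucb2 became 0.032 and Stmn2 0.042. Gcg became -0.0065 scaled by totals and -0.0087 by upper quartiles. With 1 library left out, the ranges that crossed 0 were -0.43 to 0.13 for Chga, -0.15 to 0.29 for Scg2, -0.16 to 0.089 for Pcsk1, -0.13 to 0.15 for Pcsk2, -0.33 to 0.0050 for Cpe and -0.057 to 0.073 for Pam. Those that did not cross 0 were -0.84 to -0.21 for Chgb, -0.31 to -0.085 for Scg3 and -0.28 to -0.045 for Scg5. Outside the members the ranges that crossed 0 were -0.34 to 0.031 for Cck, -0.13 to 0.015 for Nucb2, -0.15 to 0.11 for Stmn2, -0.080 to 0.14 for Spp1, -0.081 to 0.21 for Ttr, -0.23 to 0.052 for Gata4, -0.50 to 0.51 for Ins1, -1.11 to 0.38 for Ins2 and -0.18 to 0.18 for Gcg. The cause was not tested. Without counts, depth sets no stated limit here.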
